A study of Mus musculus with 2 samples.

Results

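The 10 genes described here carry cholesterol out of cells, move it inside them, or belong to the liver X receptor (LXR) pathway that controls this traffic. They are the receptors Nr1h3 and Nr1h2, the efflux transporters Abca1 and Abcg1, the apolipoprotein gene Apoe, the HDL receptor gene Scarb1, the lysosomal cholesterol genes Npc1 and Npc2, the ubiquitin ligase gene Mylip and the acyltransferase gene Lpcat3. They were picked by gene symbol, with their difference between the libraries already known, and make up 10 of the 17431 genes with a read. The difference between the libraries is therefore a description of these genes and not evidence that the group stands apart. All 10 had an RPKM of at least 1 in both libraries (RPKM, the reads of a gene scaled to its length and to the counted reads of its library) and so passed the filter of RPKM 1 and 20 reads in either library, as did 12053 genes in all.

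Poly(A) RNA was sequenced from 2 cultures of BALB/c mouse dermis, with 1 library for each. Fibroblasts came from mice at postnatal day 3 and grew in DMEM with 10% fetal bovine serum. Skin-derived precursors (SKPs), dermal cells propagated with growth factors, came from mice at postnatal day 4 and grew in DMEM/F12 with 40 ng/ml FGF2, 20 ng/ml EGF and 2% B27 supplement. Cell type, medium, growth factors and age changed together and cannot be told apart, no genotype, allele or drug is named in the labels, and the labels do not say how many mice gave each culture. With 1 library per group there is no replicate check and no p-value was computed. Intervals in parentheses are 95% exact (Clopper-Pearson) counting intervals, which cover counting error only and not the spread between cultures. They take each read as independent, and since PCR copies are not independent molecules they may be too narrow even for that.

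The libraries were close in depth, with 23374716 reads sequenced for fibroblasts and 22981183 for SKPs, and the median log2 ratio of SKP over fibroblast RPKM across all expressed genes was -0.01. The 10 dermal fibroblast markers were all at RPKM 1 or more in both libraries, but not all at similar levels. Past 2-fold, 2 of them were higher in SKPs and 3 lower, and 5 were neither, with a median log2 ratio of -0.28. Of 8 SKP markers, 8 were at RPKM 1 or more in the SKP library and 7 in the fibroblast library. The summed level of the SKP markers was 3175 RPKM in fibroblasts and 2459 in SKPs, with a median log2 ratio of -0.18. Fn1 and Vim, which are also among the dermal fibroblast markers, carried most of both sums and lowered the median. The list as a whole was not higher in the culture it is named for, by its sum or by its median. Past 2-fold and higher in SKPs were 2 of the 8, the intermediate filament gene Nes (6.30 RPKM in fibroblasts, 28.2 in SKPs) and the transcription factor gene Sox2 (0.818 and 1.83). The other 6 were on neither side. Of these, Snai2 (53.9 and 29.0), Ngfr (7.33 and 4.63), Twist1 (60.6 and 55.0), Fn1 (877 and 758) and Vim (2162 and 1573) had the lower level in SKPs, and Sox9 (6.77 and 9.05) the higher one.

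Cells cannot break down the sterol ring, so surplus cholesterol is either stored as esters or exported to apolipoproteins and HDL. LXRs are nuclear receptors that bind oxysterols, pair with a retinoid X receptor (RXR) on repeated DNA half-sites spaced by 4 bases (a DR4 element), and switch on genes of cholesterol export, with Abca1, Abcg1, Apoe, Mylip and Lpcat3 among the known targets. The SREBP2 pathway works in the opposite direction, since it is active when membrane cholesterol is low and drives cholesterol synthesis and lipoprotein uptake.

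Promoter sequence was taken from RefSeq (GRCm38.p6), with windows of 250 bases before and 50 after each annotated start, and 7 of the 10 genes matched a window, with 10 starts among them. The LXR element of the Abca1 promoter was read from that gene's own window and spelled out as GGGTTANNNNCGGTCA. Searched on both strands, it lay in 3 of 32851 windows (0.00913%), those of Abca1 and of Srebf1 and Fasn, which encode the master regulator of fatty acid synthesis and fatty acid synthase and are themselves known LXR targets. The 3 sites are printed because Abca1 shares this element with these lipid synthesis genes, whose RNA levels are set beside its own below. The capitals mark the repeat, and each window is given on the plus strand while all 3 genes lie on the minus strand.
Abca1, chr4:53159940-53159969: agcgccgGGGTTACTACCGGTCAaacgctg
Srebf1, chr11:60210631-60210660: cgcgctgGGGTTACTGGCGGTCActgtcgt
Fasn, chr11:120824750-120824779: tcaggcgGGGTTACTACCGGTCAtcgtggc
The repeat covered positions -67 to -52 from the start of Abca1, -182 to -167 from 1 of the annotated starts of Srebf1 and -225 to -210 from that of Fasn. The consensus repeat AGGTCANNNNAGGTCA lay in 5 windows (0.0152%) and its half-site AGGTCA in 5340 (16.3%). Neither was found in the windows of the 7 genes that had one. Abcg1, Scarb1 and Npc1 had no window and were not searched for any motif. The GC box GGGCGG, found in 35.7% of all windows, occurred 6 times in the window of Lpcat3, 3 times in that of Npc2, 2 times in that of Abca1 and 1 time in that of Mylip. The E-box CACGTG, present in 7.15% of windows, was found 1 time, in the window of Abca1. None of these motifs was found in the windows of Apoe, Nr1h3 and Nr1h2. A match is a description of these letters only.

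With an interval that excluded equality, 3 of the 10 genes lay 2-fold or more above their fibroblast level in SKPs, the acceptor gene Apoe and both efflux transporter genes, Abcg1 and Abca1. The HDL receptor gene Scarb1 lay 2-fold or more below it, and 6 genes were on neither side. Of all expressed genes 12.1% lay above and 6.41% below in this way; since the genes were chosen on this contrast, nothing is read from their count. At 1.5-fold, where 18.7% of expressed genes were higher and 14.2% lower, 7 of the 10 were higher and 1 was lower. At 4-fold, where the shares were 5.85% and 2%, 2 of the 10 were higher, Apoe and Abcg1, and 0 lower. The median log2 ratio of the 10 was 0.80. In bulk RNA of this kind, fewer cells that express a gene and less of its RNA per cell cannot be told apart.

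**Figure D1:**
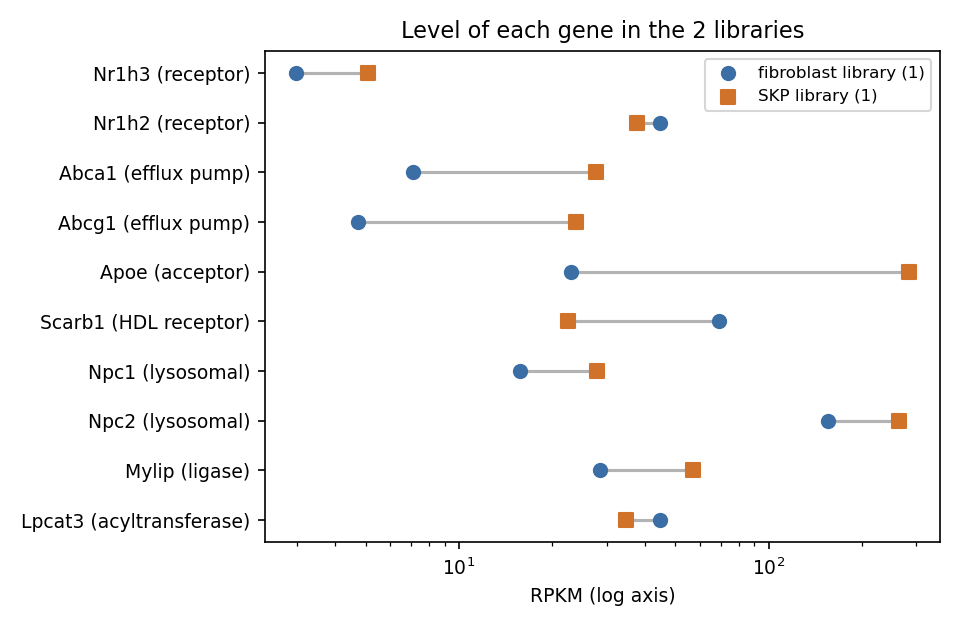
RPKM (log axis) of each of the 10 genes in the fibroblast library (circles) and the SKP library (squares), 1 library each, ordered by role. The widest gap is that of Apoe, from 23.0 to 284 RPKM, and Scarb1, Nr1h2 and Lpcat3 are the genes whose circle lies to the right of the square.

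The receptors came first in order of role and showed small differences. Nr1h2 (gene ID 22260), the LXR beta gene that most tissues express, had 1611 reads and a level of 44.6 RPKM in the fibroblast library and 1403 reads and 37.7 RPKM in the SKP library. It was thus slightly higher in fibroblasts, by 1.18-fold (1.10 to 1.27). Nr1h3 (22259), the LXR alpha gene, which is best known from liver, fat and macrophages, had 107 reads and 2.97 RPKM in the fibroblast library and 189 reads and 5.10 RPKM in the SKP library. That is a 1.72-fold higher level in SKPs (1.35 to 2.20), with the widest interval of the 10 genes relative to its size because it rests on the fewest reads.

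Nr1h2 was the more abundant receptor RNA in both cultures. Per length, its level was 14.99 times that of Nr1h3 in the fibroblast library (12.3 to 18.4) and 7.39 times in the SKP library (6.34 to 8.65). The 2 intervals do not overlap, so the gap between the receptors was smaller in the SKP library beyond counting error.

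Both transporters had low levels in fibroblasts. Abca1 (11303), which loads cholesterol and phospholipid onto lipid-poor apolipoproteins, had 1343 reads and 7.11 RPKM in the fibroblast library and 5375 reads and 27.6 RPKM in the SKP library. The ratio was 3.89 (3.66 to 4.13). Abcg1 (11307), which passes sterol on to HDL particles, had 507 reads and 4.73 RPKM in the fibroblast library and 2638 reads and 23.9 RPKM in the SKP library. The ratio was 5.05 (4.59 to 5.57). Reads covered 88.51% of the Abca1 transcript in fibroblasts and 99.05% in SKPs, and 79.37% and 98.57% of that of Abcg1. The pair kept the same order in both cultures: the level of Abca1 was 1.503 times that of Abcg1 in fibroblasts (1.36 to 1.67) and 1.16 times in SKPs (1.10 to 1.21).

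Srebf1 and Fasn, which share the promoter repeat with Abca1, were at close to equal levels in the 2 libraries. Srebf1 has more than 1 annotated start, with the repeat at 1 of them, and its level counts reads of the whole gene. RNA from the start with the repeat was thus not measured apart. Srebf1 was at 38.5 RPKM in fibroblasts and 46.0 in SKPs, 1.19-fold higher in SKPs (1.14 to 1.25). Fasn was at 55.9 and 61.5 RPKM, 1.10-fold higher in SKPs (1.07 to 1.13). The ratio of Abca1 lay above both intervals.

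Apoe (11816), a secreted protein that takes up exported cholesterol and binds lipoprotein receptors, had the widest difference of the 10. It had 536 reads and 23.0 RPKM in the fibroblast library and 6813 reads and 284 RPKM in the SKP library, 12.3-fold more (11.3 to 13.5). By RPKM it moved from rank 3213 among all genes with a read in fibroblasts to rank 187 in SKPs. It took 2.46% (2.26 to 2.67) of the reads of the 10 genes in fibroblasts and 16.4% (16.1 to 16.8) in SKPs.

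Scarb1 (20778), the HDL receptor that takes up cholesterol esters and also lets free cholesterol pass in either direction, went the other way. It had 3217 reads and 69.0 RPKM in the fibroblast library and 1084 reads and 22.6 RPKM in the SKP library, 3.06-fold higher in fibroblasts (2.85 to 3.28). Its level in fibroblasts was 9.70 times that of Abca1 (9.10 to 10.3) and 14.6 times that of Abcg1 (13.3 to 16.0). In SKPs the corresponding ratios were 0.817 (0.764 to 0.872) and 0.944 (0.879 to 1.01). The HDL receptor RNA was thus far above both pumps in fibroblasts, below Abca1 in SKPs, and not distinguishable there from Abcg1 at this depth.

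**Figure D2:**
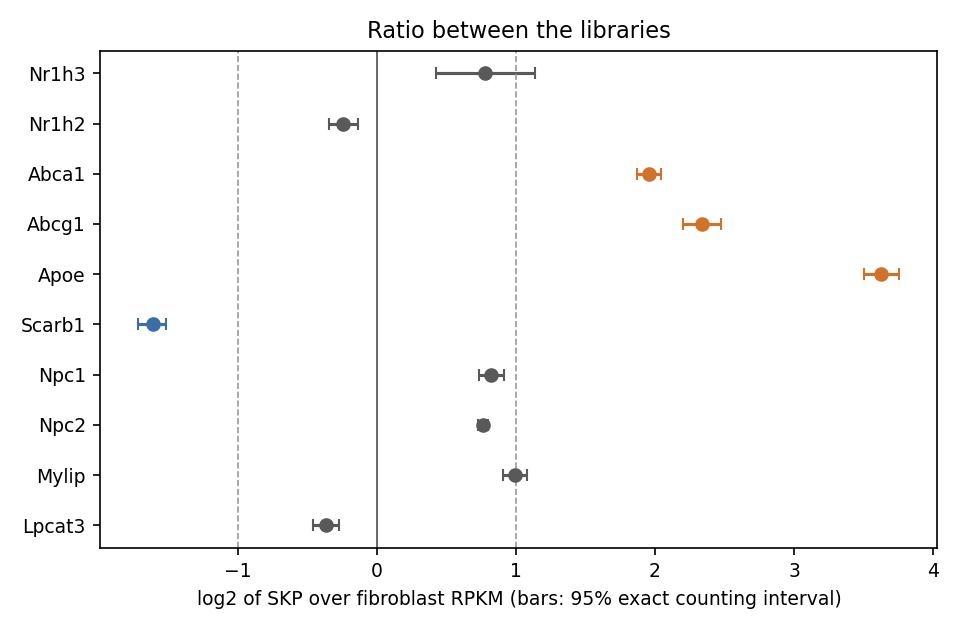
log2 of SKP over fibroblast RPKM for the 10 genes, with 95% exact counting intervals as bars and 1 library per group. Apoe lies farthest to the right at 3.63, Scarb1 farthest to the left at -1.61, and Mylip at 0.99, just inside the 2-fold line.

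The lysosomal pair was higher in SKPs by similar amounts, both under 2-fold. Npc2 (67963), a soluble protein that hands cholesterol from the lysosome lumen to Npc1, had 9360 reads and 155 RPKM in the fibroblast library and 16344 reads and 263 RPKM in the SKP library, 1.70-fold more (1.65 to 1.74). Npc1 (18145), the membrane protein that receives it, had 1508 reads and 15.7 RPKM in the fibroblast library and 2747 reads and 27.8 RPKM in the SKP library, 1.77-fold more (1.66 to 1.89). The level of Npc2 was 9.86 times that of Npc1 in fibroblasts (9.34 to 10.4) and 9.45 times in SKPs (9.08 to 9.85), so their proportion was not distinguishable between the libraries. Npc2 took 42.9% (42.3 to 43.6) of the reads of the 10 genes in fibroblasts and 39.4% (39.0 to 39.9) in SKPs.

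Mylip and Lpcat3 are LXR targets that act on receptors and membrane lipids rather than on export. Mylip (218203), also known as Idol, a ubiquitin ligase that sends lipoprotein receptors to degradation, had 1568 reads and 28.6 RPKM in the fibroblast library and 3212 reads and 56.8 RPKM in the SKP library. Its ratio of 1.99 (1.87 to 2.11) placed it just under the 2-fold threshold, which it passed with DESeq2 size factors or uniquely matched reads as the scale, and Abca1 at 3.89 was the nearest gene above it. Lpcat3 (14792), which builds polyunsaturated acyl chains into phospholipids, had 2049 reads and 44.5 RPKM in the fibroblast library and 1640 reads and 34.6 RPKM in the SKP library, 1.29-fold higher in fibroblasts (1.20 to 1.37). Among the genes named above as LXR targets, Abca1, Abcg1, Apoe and Mylip thus had the higher level in SKPs and Lpcat3 the lower one. The genes were chosen on this contrast, so nothing is read from how many lay on each side. The median log2 ratio of all expressed genes was -0.01.

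Ordered by level, the fibroblast library ran from Npc2 through Scarb1, Nr1h2, Lpcat3, Mylip, Apoe, Npc1, Abca1 and Abcg1 to Nr1h3. There the levels of Nr1h2 and Lpcat3 were not distinguishable, with a ratio of 1.00 (0.938 to 1.07). The SKP library ran from Apoe through Npc2, Mylip, Nr1h2, Lpcat3, Npc1, Abca1, Abcg1 and Scarb1 to Nr1h3. Npc1 and Abca1 were not distinguishable there, with a ratio of 1.01 (0.961 to 1.05), and neither were Abcg1 and Scarb1, at 1.06 (0.987 to 1.14). Together the 10 genes took 21806 reads, 0.118% of those counted, in fibroblasts and 41445 reads, 0.219%, in SKPs.

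**Figure D3:**
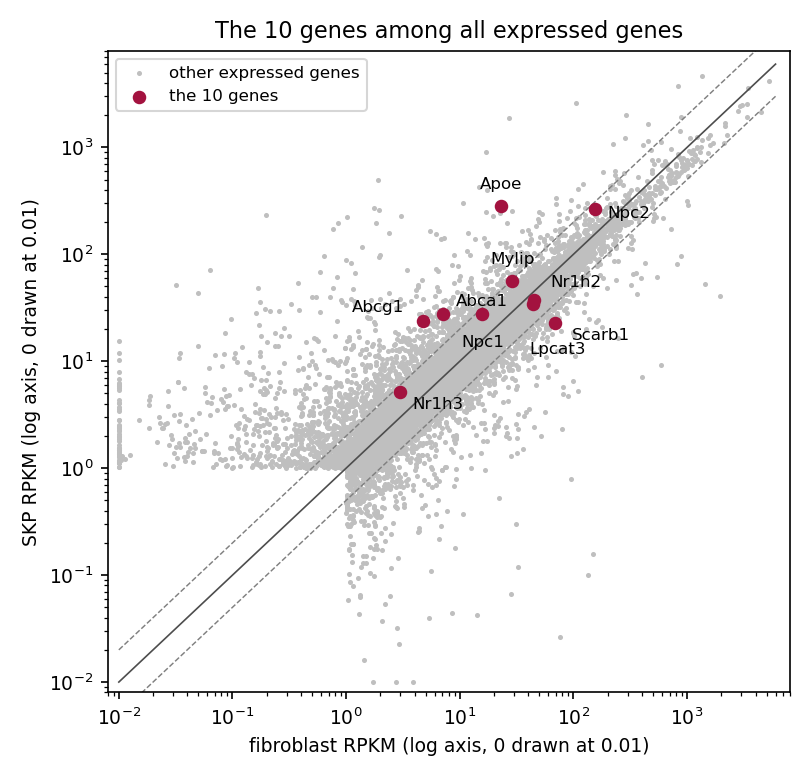
RPKM in the fibroblast library (x, log axis) against the SKP library (y, log axis) for 12053 expressed genes, with the 10 genes in red, the line of equality and dashed lines at 2-fold. Apoe, Abcg1 and Abca1 lie above the upper dashed line, Scarb1 lies below the lower one, and Mylip lies next to the upper one.

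The authors' deposited table of comparisons was also read for the 10 genes. The authors' deposited table of genes past their filter held 4 of the 10, namely Abca1, Abcg1, Apoe and Scarb1, and 2659 of 17431 genes overall (15.3%). In that authors' deposited table the smallest log2 difference was 1.00 in size. It has the same single library per group behind it.

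Other genes of the pathway were counted in lists with the same 2-fold rule, the members themselves left out. Of 161 such genes 130 were expressed, and 30 of these passed 2-fold upwards in SKPs (23.1%) and 24 downwards (18.5%), beside 12.1% and 6.41% of all expressed genes. These are the shares against which each list below is read, beside a median log2 ratio of -0.01 over all expressed genes. Where a call is said to be lost, it was lost with 1 added to each RPKM (the log2(RPKM + 1) scale) or because the gene is below RPKM 5 in both libraries.

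The receptor partners and coregulators were mostly under 2-fold apart: 2 of 15 expressed genes were higher in SKPs, 0 lower and 13 neither, with a median log2 ratio of 0.20. The higher share of 13.3% was near the 12.1% of all expressed genes. The LXR partner gene Rxra was at 23.6 RPKM in fibroblasts and 32.9 in SKPs, 1.40-fold higher in SKPs (1.32 to 1.47). Rxrb was at 12.1 and 16.8 RPKM, 1.39-fold higher (1.25 to 1.55). Rxrg, the third RXR gene, differed far more, with 8 reads and 0.202 RPKM in fibroblasts and 620 reads and 15.2 RPKM in SKPs, a 75.3-fold difference (38.0 to 175). In fibroblasts Rxra and Rxrb thus made up nearly all RXR RNA, while in SKPs Rxrg reached a level close to that of Rxrb. Nrip1, a corepressor of nuclear receptors, was the other gene past 2-fold, at 2.34-fold higher in SKPs (2.01 to 2.75), a call lost on the log2(RPKM + 1) scale, where its log2 ratio was 0.99.

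Among other genes known as LXR targets, 8 of 16 expressed were higher in SKPs, 1 was lower and 7 were neither. Their median log2 ratio was 1.31, in which Apoc4, with no fibroblast read, enters at its value against a floor of 3 reads. Of the 8 higher genes, 4 were below RPKM 5 in both libraries, namely Apoc4, Mertk, Rarb and Slc2a4. Another 8 of the 25 symbols were below the filter and Cyp7a1, the rate-limiting enzyme of bile acid synthesis, had no read. The higher ones included Rarb, a retinoic acid receptor gene (20.5-fold, 10.6 to 45.5), and Slc2a4, the insulin-responsive glucose transporter gene (5.23-fold, 3.65 to 7.69). Scd1, which desaturates fatty acids, was at 94.8 RPKM in fibroblasts and 320.3 in SKPs, 3.38-fold higher (3.30 to 3.46). The lower one was Lpl, lipoprotein lipase, at 321 RPKM in fibroblasts and 150 in SKPs, 2.15-fold higher in fibroblasts (2.10 to 2.20). Pltp, which transfers phospholipid between lipoproteins, was at 10.5 and 13.3 RPKM, and Abcg4, a relative of Abcg1 in sterol export, was near 0 in both, at 0.120 and 0.597 RPKM.

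**Figure D4:**
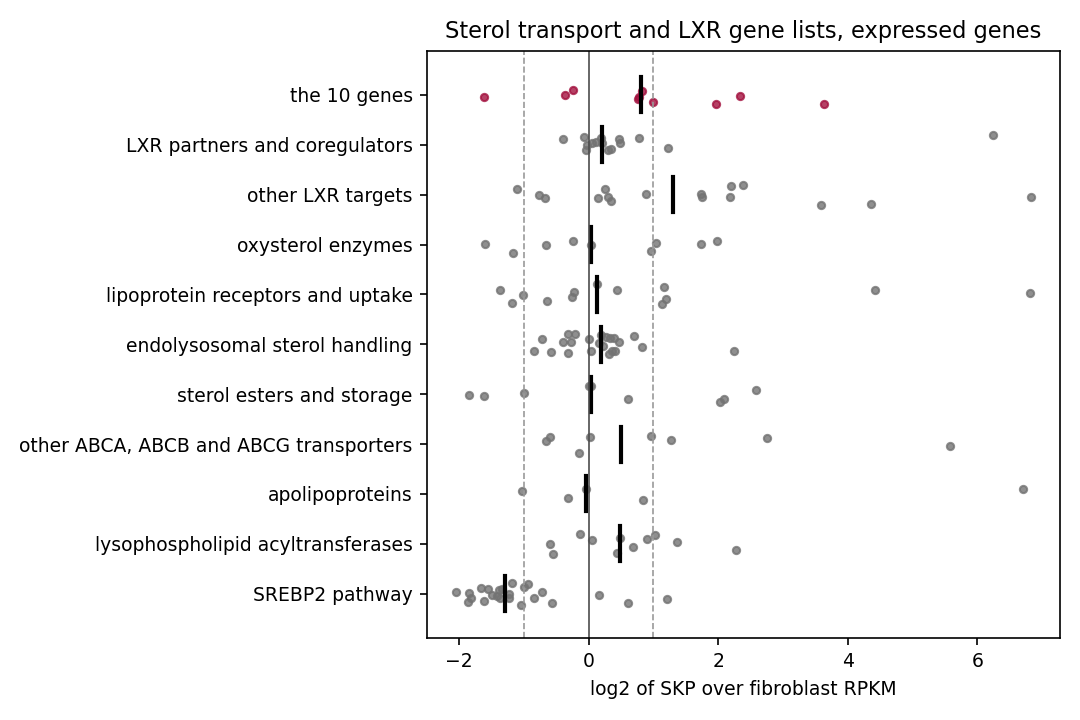
log2 of SKP over fibroblast RPKM for the expressed genes of each list (points) with the list's median (black bar) and dashed lines at 2-fold. The 10 genes have a median of 0.80, the other LXR targets one of 1.31 and the SREBP2 pathway one of -1.28.

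Apoe lies in a gene cluster with Apoc1, Apoc4 and Apoc2, small apolipoproteins of circulating lipoproteins, and the whole cluster had more RNA in SKPs. The neighbourhood was looked at after the values of Apoe were seen, in the gene order of RefSeq. Apoc1 had 1 read in fibroblasts and 117 in SKPs, a ratio of 114 (20.0 to 4527). Apoc4 had 0 and 37 reads, at least 11.98-fold higher in SKPs against a floor of 3 reads in the fibroblast library, and Apoc2 had 0 and 8 reads. All 3 were far below Apoe, with Apoc1 at 11.99 RPKM in SKPs and Apoc4 at 4.08.

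The nearest genes on either side of the cluster did not share this direction. Tomm40, a mitochondrial import gene next to Apoe, was at 52.0 RPKM in fibroblasts and 37.5 in SKPs, 1.39-fold higher in fibroblasts (1.29 to 1.497). Nectin2, a cell adhesion gene listed in the files under its older symbol Pvrl2, was 2.77-fold higher in fibroblasts (2.58 to 2.97). On the other side Clptm1 was at 49.2 and 47.8 RPKM, a ratio of SKP over fibroblast of 0.972 (0.928 to 1.02).

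**Figure D5:**
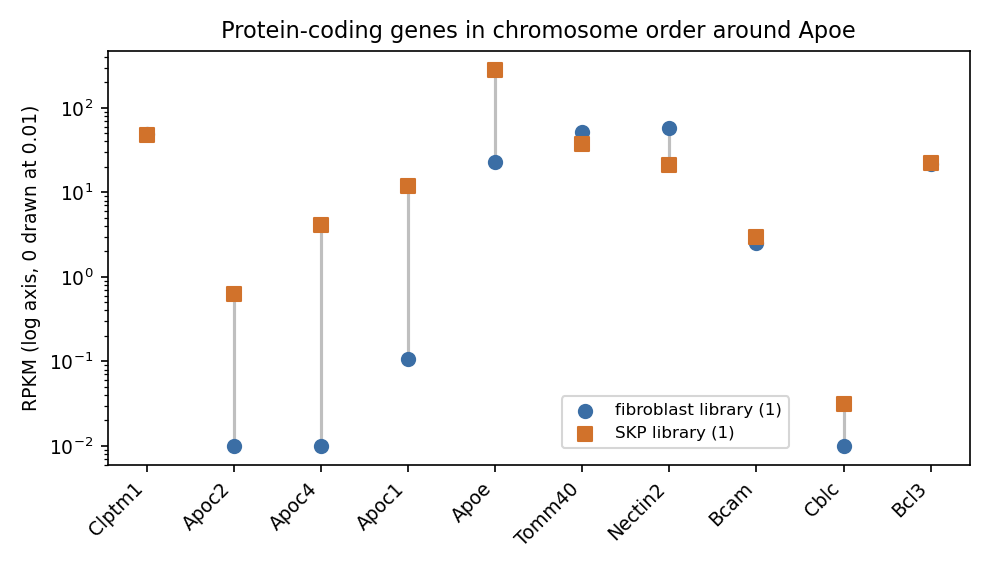
RPKM (log axis, 0 drawn at 0.01) in the fibroblast library (circles) and the SKP library (squares) for protein-coding genes in chromosome order around Apoe. Apoc2, Apoc4, Apoc1 and Apoe have the square well above the circle, whereas Tomm40 and Nectin2 have the circle above, and Cblc has 0 and 1 read.

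The list of other apolipoproteins also holds Apobec1, which encodes an enzyme that edits the Apob RNA and is not an apolipoprotein. With Apobec1 counted as neither, the list gave 1 gene higher, 1 lower and 3 neither of 5 expressed. Its median log2 ratio, Apobec1 included, was -0.04. The higher one was Clu, a secreted chaperone also called apolipoprotein J, with 11 reads in fibroblasts and 1178 in SKPs, a 104-fold difference (57.9 to 209). The lower one was Apol6, with 75 and 38 reads, whose call was lost with uniquely matched reads as the scale, on the log2(RPKM + 1) scale and at RPKM 5. Apoa1, the main protein of HDL and the usual acceptor for Abca1, had 1 read in each library.

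The enzymes that make or clear oxysterols, the ligands of LXR, fell on both sides, with 3 of 9 expressed genes higher in SKPs, 2 lower and 4 neither, and a median log2 ratio of 0.03. Cyp27a1, the sterol 27-hydroxylase, was at 2.13 RPKM in fibroblasts and 8.38 in SKPs, 3.94-fold higher (3.04 to 5.15). Ch25h, which makes 25-hydroxycholesterol, was at 6.29 and 20.9 RPKM, 3.33-fold higher (2.79 to 4.00). The third was Cyp7b1, which clears such oxysterols, 2.06-fold higher (1.67 to 2.56), a call lost on the log2(RPKM + 1) scale. Ebp, a sterol isomerase of the late steps of cholesterol synthesis, was among the lower ones, at 3.03-fold higher in fibroblasts (2.70 to 3.40).

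Vldlr and Lrp8 are lipoprotein receptors that Mylip is known to target, and their RNAs differed in opposite directions. Vldlr, the VLDL receptor, was at 5.13 RPKM in fibroblasts and 11.5 in SKPs, 2.24-fold higher in SKPs (2.06 to 2.44). Lrp8, an Apoe receptor, was at 4.997 and 2.49 RPKM, 2.01-fold higher in fibroblasts (1.76 to 2.29), a ratio that fell under 2-fold with DESeq2 size factors or uniquely matched reads as the scale and on the log2(RPKM + 1) scale, and that rests on levels below RPKM 5. The ubiquitin-conjugating partners of Mylip were at similar levels in both, Ube2d1 at 27.5 and 23.0 RPKM and Ube2d3 at 126 and 108 RPKM, although reads from near-identical family members may have been divided between them.

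In the whole list of lipoprotein receptors and uptake, 5 of 13 expressed genes were higher in SKPs, 3 lower and 5 neither, with a median log2 ratio of 0.12. Lrp1, a large receptor that takes up Apoe-bearing particles, was at 132 RPKM in fibroblasts and 303 in SKPs, 2.30-fold higher (2.27 to 2.32). The scavenger receptor genes Cd36 and Olr1 were 113-fold (70.4 to 194) and 21.5-fold (16.3 to 28.8) higher in SKPs, and Scarb2, the lysosomal relative of Scarb1, was 2.19-fold higher (2.06 to 2.32).

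The SREBP2 pathway lay opposite to Abca1, Abcg1 and Apoe: 16 of 24 expressed genes were lower in SKPs, 1 was higher and 7 were neither, with a median log2 ratio of -1.28. Fdps, which makes farnesyl diphosphate, was 4.13-fold higher in fibroblasts (3.91 to 4.37), and Idi1, an isomerase of the same branch, was 3.58-fold higher there (3.33 to 3.84). Insig1, which holds SREBP2 back and is itself its target, lay just under the threshold at 2.00-fold higher in fibroblasts (1.87 to 2.13) and passed it under TMM scaling, and Srebf2 was 1.49-fold higher there (1.42 to 1.55). Scap, the escort protein of SREBP2, was the 1 gene higher in SKPs, by 2.30-fold (2.19 to 2.42).

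Around Npc1 and Npc2, the other endolysosomal sterol genes were nearly all under 2-fold apart, with 1 of 23 expressed genes higher in SKPs (4.35%), 0 lower and 22 neither, and a median log2 ratio of 0.19. Lipa, the acid lipase that frees cholesterol from lipoprotein esters, was at 43.1 RPKM in fibroblasts and 50.4 in SKPs, 1.17-fold higher (1.11 to 1.24). The 1 higher gene was Gramd1b, a carrier of plasma membrane cholesterol to the endoplasmic reticulum, at 4.74-fold (4.04 to 5.60). Psap, the saposin precursor, was at 552 and 763 RPKM.

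Genes of sterol esters and lipid storage fell on both sides, with 3 of 9 expressed genes higher in SKPs, 3 lower and 3 neither, and a median log2 ratio of 0.04. Soat1, which esterifies cholesterol for storage, was at 22.2 RPKM in fibroblasts and 22.3 in SKPs, a ratio of 1.01 (0.944 to 1.07). Nceh1, a hydrolase that frees cholesterol from stored esters, was 4.06-fold higher in SKPs (3.67 to 4.50), and Lipe, the hormone-sensitive lipase, was 6.02-fold higher (4.93 to 7.41). Lcat, which esterifies cholesterol on HDL, was 3.60-fold higher in fibroblasts (2.17 to 6.25), with 70 and 20 reads and levels below RPKM 5. Soat2, the second sterol esterifying enzyme, was 3.06-fold higher there (2.05 to 4.65), a call lost at RPKM 5 and on the log2(RPKM + 1) scale. Acat2, a thiolase of acetoacetyl-CoA synthesis, was 2.01-fold higher there, which fell under 2-fold with DESeq2 size factors, with uniquely matched reads and on the log2(RPKM + 1) scale. At RPKM 5 and on the log2(RPKM + 1) scale 1 of the 3 lower calls was thus left, Acat2 in the first case and Lcat in the second. Dgat2, a triglyceride enzyme, was the third higher gene in SKPs, at 4.27-fold (3.44 to 5.34).

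Among relatives of Abca1 and Abcg1, 3 of 8 expressed transporter genes were higher in SKPs, 0 lower and 5 neither, with a median log2 ratio of 0.50. Abca8a and Abca9, neighbouring members of the Abca6-like group, were 47.6-fold (27.04 to 92.6) and 6.78-fold (5.74 to 8.05) higher, and Abca5 was 2.43-fold higher (2.11 to 2.80), a call lost at RPKM 5 and on the log2(RPKM + 1) scale. Abca7, the closest relative of Abca1, was at 7.55 RPKM in fibroblasts and 4.97 in SKPs, the opposite order to that of Abca1, and Abcg2, a transporter of drugs and urate, was at 15.6 and 30.4 RPKM. Of the acyltransferases related in function to Lpcat3, 3 of 11 expressed were higher in SKPs, 0 lower and 8 neither, with a median log2 ratio of 0.49. Lpcat1, a lung surfactant enzyme, was 2.03-fold higher in SKPs (1.67 to 2.47; just under 2-fold with TMM scaling) and Lpcat2 2.56-fold (1.93 to 3.43). Agpat9, a glycerolipid acyltransferase, was 4.86-fold higher in SKPs (3.27 to 7.45). Of these 3 calls 1 was left on the log2(RPKM + 1) scale, that of Agpat9, and 1 at RPKM 5, that of Lpcat1. Lpcat3 itself was 1.29-fold higher in fibroblasts.

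Markers of other cell types that also express efflux genes differed between the libraries. Of 10 adipocyte markers 9 passed 2-fold upwards in the SKP library, where their summed level was 405 RPKM against 32.7 in the fibroblast library, with Retn and Lep at 0 in fibroblasts. Fabp4, a fatty acid carrier of fat cells, was at 22.6 and 243 RPKM, and Cidec, a lipid droplet gene, at 0.0319 and 51.1 RPKM. Cd36 and Lipe belong to this list as well as to the sterol lists above.

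Macrophage markers were low in both. Their 16 symbols summed to 5.45 RPKM in fibroblasts and 33.5 in SKPs, and 4 of the 5 expressed were higher in SKPs, with 4 symbols at 0 in fibroblasts and 1 in SKPs. The pan-leukocyte gene Ptprc had 2 and 12 reads and the macrophage receptor gene Csf1r 20 and 29 reads. Lyz2 reached 1.95 and 12.7 RPKM and Cd68 1.62 and 8.90 RPKM. Mast cell markers summed to 0.241 RPKM in fibroblasts and 83.1 in SKPs, with 6 of 7 symbols expressed and all 6 higher, and 2 symbols at 0 in fibroblasts. Keratinocyte markers summed to 2.93 and 40.6 RPKM, with 7 of 9 expressed and all 7 higher, and 2 at 0 in fibroblasts. Schwann and glial markers summed to 9.39 and 4.19 RPKM, with 1 higher, 3 lower and 1 neither of 5 expressed. Of 6 melanocyte markers 1 was expressed, Mitf, which mast cells also express, at 3.18 and 17.0 RPKM, and it carried most of the list's sum of 4.87 and 19.7 RPKM. The pigment enzyme gene Tyr ran the other way, at 0.838 and 0.447 RPKM. Of 5 endothelial markers 1 was expressed, Cdh5, at 0.787 and 3.57 RPKM, in a sum of 1.57 and 4.68 RPKM. The part of these cell types in the levels of Apoe, Abca1, Abcg1 and the other genes was not tested.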

How the data were processed

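RNA of 1 fibroblast and 1 SKP library was enriched with oligo(dT) beads, per the labels' protocols, and grouped by the labelled cell type. Per the file headers, the deposited tables give each gene a whole-number count of reads and an RPKM, which is that count scaled to gene length and to the library's counted reads. The deposited percent values are shares of total reads (81.65% of 23374716 fibroblast and 85.13% of 22981183 SKP reads mapped, each 49 bases long) and of gene length under reads. Reads at several positions, 19.69% and 21.69%, were counted by an unstated rule, so paralogs and overlapping or antisense genes may share reads. The authors' table gives a log2 ratio of fibroblast over SKP RPKM, a p-value and an FDR, per the file headers, from an unnamed test. The submitters' processing notes name the build mm9. The aligner, counter, annotation and strandedness were not given in the sources used here. No column of a sample outside the series was used.

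Ratios and exact intervals were computed in Python 3.11.15 (pandas 2.3.3, numpy 2.4.6, scipy 1.17.1, matplotlib 3.10.9), and the script was tested on simulated data. At these depths 1 read in 1 kb is worth 0.0543 RPKM for fibroblasts and 0.0528 for SKPs. A gene with at least RPKM 1 and at least 20 reads in 1 of the libraries was called expressed. An expressed gene was higher or lower at 2-fold or more with a 95% interval that excluded equality; 0 reads were set against a floor of 3, and no fold was given where the other library had no more than that. Alternatives used 1.5-fold and 4-fold, RPKM 5, no filter, 99% intervals, log2(RPKM + 1), edgeR 4.0.16 TMM factors, DESeq2 1.42.0 size factors (R 4.3.3), upper quartile scaling and uniquely matched reads.

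The 10 genes and all lists were chosen with earlier results of these data known. Named are the 10 genes, up to 4 expressed genes of each list with the largest ratio and 2 with the highest RPKM, and genes paired with a member by role; Lrp8, Abca7, Apoa1, Fasn, Scap, Cyp7b1, Cyp7a1, the single SKP markers, single markers of macrophages, melanocytes and endothelium, Soat2, Mertk and the genes around Apoe were added after their values were seen. Promoters are of GRCm38.p6, another build than the files', and were joined by gene. Planned protein comparisons were not made, and some named genes are not reported here.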

Additional observations from a re-analysis of the deposited data

How the results depend on the processing

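No paired analysis was possible because each group has 1 library, and for the same reason no library could be left out. At 1.5-fold 7 of the 10 genes were higher in SKPs in place of 3, and 37 pathway genes were lower in place of 24. At 4-fold 0 of the 10 were lower in place of 1, and the pathway counts were 17 higher in place of 30 and 1 lower in place of 24. These 5 followed from the threshold itself. The other 37 values of these counts and of the members' median stayed within 1.5 times or the interval. For single genes and single lists 207 values stayed so and 33 did not, and no value reversed direction. Mylip passed 2-fold under DESeq2 size factors (log2 1.00) and with uniquely matched reads (1.02), which made 4 genes higher, and its log2 ratio was 0.97 under TMM factors. The scaling that moved the median of all genes most was that by uniquely matched reads, by 0.0323 in log2. Among the 10 genes depth limits Nr1h3 most, with 107 fibroblast reads; among other genes given with a fold, Apoc1, Apoc4, Rxrg, Rarb, Clu, Abca8a and Cd36 had 17 fibroblast reads or fewer. The 6 genes of 10 that were called neither had intervals that excluded equality, but the spread between cultures is unknown.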

Other observations

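Reads covered a smaller share of the Apoe transcript in the library that held more of them. Coverage was 96.37% with 536 reads in fibroblasts and 91.63% with 6813 reads in SKPs, a difference of -4.74 percentage points. Among 178 genes with at least 100 fibroblast reads and at least 4-fold higher RPKM in SKPs, 2 had a lower coverage in SKPs. Apoe had the largest drop and the other was the class I histocompatibility gene H2-L, at -0.19 points, while the median difference was 9.63 points. This set was chosen after the coverage of Apoe was seen, and the transcript positions behind it were not analysed here.

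By Euclidean distance in log2 RPKM over the 2 libraries, the expressed genes nearest to Abca1 were Rgs2, S100a1 and Pear1, at distances of 0.03 to 0.05, with 15 genes within 0.25. Those nearest to Abcg1 were Sesn3, Capn6 and Robo1, at 0.11 to 0.15, with 9 within 0.25. Apoe had 1 gene within 0.25, the fat cell gene Fabp4 at 0.23, followed by Igfbp3, which encodes an IGF-binding protein, at 0.38 and the collagen gene Col18a1 at 0.39. With 2 libraries such likeness means only a similar pair of levels.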
